A study of Homo sapiens with 23 samples.

Results

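Control cells of the inducible knockdown lines sh1 and sh4 were compared with each other, without any knockdown in the comparison. The members were the 3 sh1Control and 3 sh4Control libraries of the first RNA-seq table, taken by their sample labels, 6 of the 23 libraries in the series. The question was how far the lines already differed before depletion of THUMPD3, and whether the genes that differed were also genes that moved when THUMPD3 was depleted.

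A549 is a human lung adenocarcinoma cell line with features of alveolar type II epithelium. The labels give the cell line A549 and the genotype WT for both control groups, and the genotype THUMPD3 knockdown for shD3 #1 and shD3 #4. The lines carried an all-in-one lentiviral Tet-On vector (pLKO-Tet-On), in which doxycycline switches on a short hairpin RNA (shRNA). Per the study's methods, shRNA cells were harvested on day 6. The study's methods set untreated against treated samples within each knockdown type, so the controls were the untreated samples, while the labels do not mention doxycycline. Neither source says whether a line was a clone or a pool. A difference between the control groups may hold the vector's insertion, selection, culture and library preparation together, and these cannot be told apart. The comparisons set beside it used the induced lines shD3 #1 and shD3 #4 (3 libraries each, day 6), an siRNA knockdown (3 libraries of siD3 #3 and 2 of siControl, day 5), and 6 deep libraries of sh1Control and shD3 #1, whose harvest day is not given in the sources used here.

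THUMPD3 is a methyltransferase that, with its partner TRMT112, places N2-methylguanosine on tRNA. THUMPD2 and TRMT11 are related enzymes that also use TRMT112. A hairpin that leaks without doxycycline would lower its target mRNA in the control cells, so the target was examined first. Both lines carry a hairpin against *THUMPD3*, so comparing their controls can show unequal leak only. Leak of the same size in both lines would not be seen.

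*THUMPD3* (ENSG00000134077, chr3:9362971-9386791, GRCh38) stood at 60.9, 58.2 and 61.7 cpm (counts scaled to a common library size) in sh1Control and at 66.6, 66.1 and 58.3 cpm in sh4Control. The groups overlapped through replicate 3 of sh4Control. The log2 fold change, here always sh1Control minus sh4Control unless stated, was -0.07 ± 0.06 (SE, n = 3 per group; 95% interval -0.20 to 0.06), with an adjusted p-value of 0.532 in edgeR's quasi-likelihood test with Benjamini-Hochberg adjustment. By exact permutation of the library labels the two-sided p was 0.4, where 3 libraries against 3 cannot go below 0.1. The same gene stood at 30.6 ± 0.861 cpm (SD, n = 3) in shD3 #1 and 19.9 ± 0.663 cpm in shD3 #4. *THUMPD2* (log2 fold change 0.00), *THUMPD1* (-0.04), *TRMT11* (0.09) and the antisense RNA *THUMPD3-AS1* (0.08) did not pass the test. *TRMT112* was lower in sh1Control, at 61.3 ± 5.83 against 74.4 ± 10.4 cpm (SD, n = 3 each), by -0.27 ± 0.08 (SE, adjusted p = 0.0275, edgeR). Replicate 3 of sh4Control, at 64.7 cpm, lay within the range of sh1Control. Of 14 genes of the RNA interference machinery, all tested, *RAN* was the 1 that passed the adjusted p-value (-0.22, adjusted p = 0.0197, edgeR), where 7.9% of all genes did. None of 30 tested interferon-stimulated genes did.

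The 6 libraries held 17575988 to 20368566 counts on genes, and the ranges of the groups overlapped. Mitochondrial rRNA took 28.8 to 30.8% of counts in sh1Control and 25.8 to 28.6% in sh4Control, and the 7SL RNA genes took 0.582 to 1.01% and 1.16 to 1.49%. The 7 epithelial markers of A549 were detected in both groups, with a summed level of 5845 to 6224 cpm in sh1Control and 6727 to 7070 cpm in sh4Control. Of the 7, *KRT7* and *KRT8* were lower in sh1Control at the adjusted p-value, where 4.83% of all genes were lower. *KRT19* (0.24, adjusted p = 0.0503, edgeR), *MUC1* (0.17) and *CDH1* (0.11) had log2 fold changes above 0 and did not pass. Fibroblast markers summed to 8.27 to 10.4 and 6.82 to 10.1 cpm (4 of 8 genes tested), immune cell markers to 3.48 to 4.63 and 2.47 to 3.30 cpm (1 of 6 tested), and endothelial markers to 0.358 to 1.02 and 0.419 to 0.483 cpm (0 of 4 tested). Of *CDKN2A* and *MTAP*, from a locus that A549 has lost, *CDKN2A* had 0 counts in all 17 libraries of the table and *MTAP* was at 2.49 to 3.29 and 2.91 to 3.61 cpm. Replicate 3 of sh4Control stood apart from its group. Set against replicate 1, its counts differed by a chi-square per degree of freedom of 8.83 over genes, where the pair of replicates 1 and 2 gave 2.89 and the sh1Control pairs 3.77 to 4.10.

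A gene was called when the adjusted p-value was under 0.05 and the change was at least 1.5-fold in either direction. Of 16422 genes tested, 54 were called (0.329%), 25 higher in sh1Control (0.152%) and 29 lower (0.177%). The differences were small. The median absolute log2 fold change was 0.13 over all genes and 0.77 over the called genes, and the largest was 1.73. For 12235 genes (74.5%) the 95% interval lay wholly within a 1.5-fold change in either direction. For comparison, the same thresholds called 4938 of 16529 genes (29.9%) between the induced lines shD3 #1 and shD3 #4. Without the fold threshold, 1297 genes (7.9%) passed the adjusted p-value at baseline, 504 higher (3.07%) and 793 lower (4.83%), with a median absolute log2 fold change of 0.28.

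The 54 genes were mostly of low level. Their median was 1.17 on the log2 cpm scale against 3.84 for all genes tested, and 12 had a mean level under 1 cpm. Protein-coding genes made up 32 of them, 15 higher and 17 lower, and long non-coding RNA genes 9. The 2 control groups did not overlap for 52 of the 54, as for 4226 of all genes (25.7%). Genes named below by level and size of change were picked among those without overlap, so their lack of overlap was set by that choice. The number called depended on the libraries. Leaving out sh1Control replicate 1, 2 or 3 gave 34, 20 and 53 calls, leaving out sh4Control replicate 1 or 2 gave 18 and 20, and leaving out sh4Control replicate 3 gave 177 (123 higher, 54 lower). A test against the 1.5-fold change itself (glmTreat) called 0 genes, with 56 at an unadjusted p-value under 0.05. So no gene was shown to differ by more than 1.5-fold in these libraries. DESeq2 called 3 genes, *CP*, *MT-ND2* and *MTND2P28*, and 1 edgeR fit of all 17 libraries of the table called 0, with 2576 at an unadjusted p-value under 0.05.

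**Figure D1:**
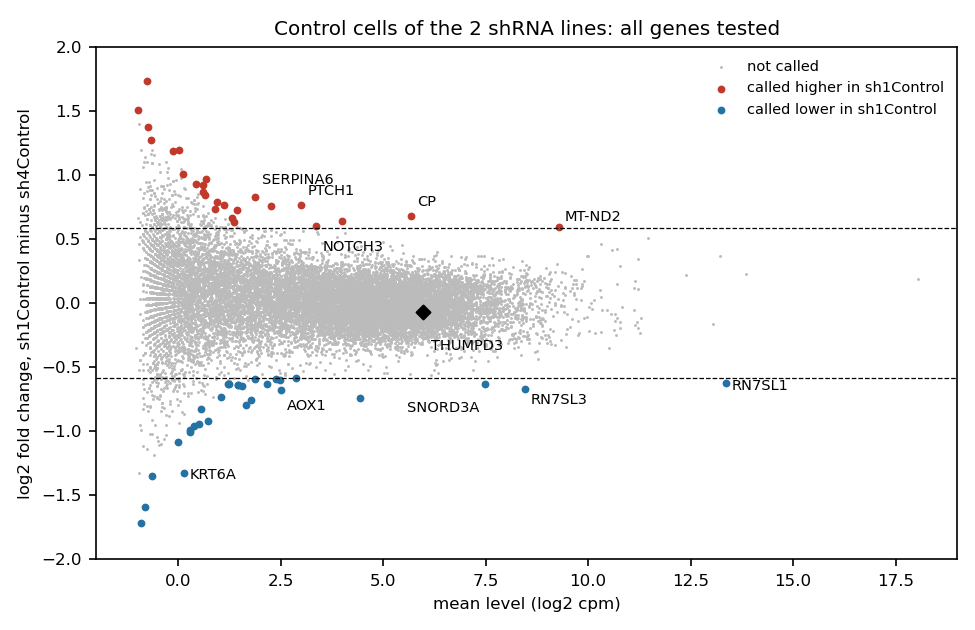
Each point is 1 of the 16422 genes tested, with its mean level in log2 cpm on the horizontal axis and the log2 fold change of sh1Control minus sh4Control on the vertical axis; dashed lines mark a 1.5-fold difference in either direction. Red points are the 25 genes called higher in sh1Control and blue points the 29 called lower; most lie at the low end, with *CP*, *MT-ND2*, *RN7SL1*, *RN7SL3* and *SNORD3A* at higher levels, and *THUMPD3* (diamond) lies near 0.

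Among genes higher in sh1Control, *CP* had the smallest adjusted p-value of a nuclear protein-coding gene. It encodes ceruloplasmin, a secreted copper-carrying ferroxidase (chr3:149162410-149221829). It stood at 68.0, 55.6 and 64.3 cpm in sh1Control and at 33.0, 40.5 and 44.4 cpm in sh4Control. Every sh1Control library was above every sh4Control library, and the log2 fold change was 0.68 ± 0.08 (SE, adjusted p = 1.73e-05, edgeR). It was called in 13 of 16 alternative fits.

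*PTCH1*, the receptor that binds hedgehog ligands and a target gene of that pathway, was at 9.47, 10.3 and 10.0 cpm in sh1Control and at 4.89, 5.67 and 7.01 cpm in sh4Control. The groups did not overlap, as the naming rule required of this gene, *SERPINA6* and *SDK2*. The log2 fold change was 0.77 ± 0.12 (SE, adjusted p = 0.000613, edgeR). *SERPINA6*, which encodes the corticosteroid-binding globulin, was at 4.45, 4.08 and 5.13 cpm against 2.52, 2.62 and 2.62 cpm, a difference of 0.83 ± 0.16 (adjusted p = 0.00264, edgeR). The sh4Control libraries were nearly level with each other, and each lay below every sh1Control library. Both genes were called in 13 of 16 alternative fits. *SDK2*, a cell adhesion protein of the immunoglobulin superfamily, was at 5.63, 6.23 and 5.83 cpm against 2.15, 3.78 and 4.50 cpm, by 0.76 ± 0.17 (adjusted p = 0.00709, edgeR). Its sh4Control libraries spread more widely than its sh1Control libraries but stayed below them.

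The other genes higher in sh1Control and named by level and size of change included *IL7R*, the interleukin-7 receptor (0.92), *APBB1IP*, an adaptor that binds Rap1 (0.79), the zinc finger gene *ZNF585A* (0.73), the pseudogene *ANKRD20A11P* (0.84), and the non-coding RNA genes *RUSF1-DT* (0.87), ENSG00000286825 (0.93) and ENSG00000256712 (0.73). Their mean levels in sh1Control were 1.62 to 3.28 cpm. *RUSF1-DT*, *ZNF585A* and ENSG00000256712 overlap genes on the opposite strand, and since the counting is not stated to use strand, reads from such pairs cannot be told apart. The same holds for *CP*, *PTCH1*, *SDK2*, *DOCK2* and *APBA1*, which overlap annotated genes on the other strand. Among genes singled out after their values were seen, *NOTCH3*, a receptor of the Notch family, was at 12, 11.4 and 13.4 cpm in sh1Control and at 6.93, 7.76 and 9.68 cpm in sh4Control (0.61 ± 0.11, adjusted p = 0.00224, edgeR). *MUC16*, a large membrane mucin, was at 2.81, 1.64 and 3.29 against 1.77, 1.60 and 1.26 cpm (0.77 ± 0.23, adjusted p = 0.0377, edgeR), and for this gene the groups overlapped.

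Among protein-coding genes lower in sh1Control, *AOX1* had the smallest adjusted p-value. It encodes aldehyde oxidase, a molybdenum enzyme of drug metabolism (chr2:200586014-200677064). It was at 3.58, 4.93 and 4.18 cpm in sh1Control and at 7.30, 6.35 and 6.81 cpm in sh4Control. The groups did not overlap, and the log2 fold change was -0.68 ± 0.14 (SE, adjusted p = 0.00363, edgeR; called in 12 of 16 alternative fits).

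*ANKRD2*, an ankyrin repeat protein best known from stretched muscle, was at 2.66, 2.44 and 2.24 cpm against 4.51, 4.07 and 3.93 cpm, by -0.76 ± 0.16 (adjusted p = 0.00554, edgeR; called in 13 of 16). Every sh1Control library was below every sh4Control library, as the naming rule required of this gene. *DOCK2*, an activator of Rac singled out after its values were seen, was at 4.2, 3.85 and 3.99 cpm against 5.69, 6.98 and 5.6 cpm, by -0.60 ± 0.14 (adjusted p = 0.00855, edgeR). *KRT6A*, a keratin of stressed and dividing epithelium chosen in the same way, was at 0.716, 0.453 and 0.498 cpm against 1.18, 1.89 and 1.15 cpm (-1.33 ± 0.32, adjusted p = 0.0106, edgeR). Its level is low in both groups, and these libraries do not overlap.

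The other genes lower in sh1Control and named by level and size of change were *TUBB2B*, a beta tubulin (-0.73), *ANO7* of the anoctamin family (-0.94), *APBA1*, a synaptic adaptor (-0.96), the small nucleolar RNA gene *SNORD15B* (-0.79), the pseudogenes *EIF4BP7* (-0.92), *HMGN2P5* (-0.99) and *H3P6* (-1.01), and the non-coding RNA gene ENSG00000288044 (-0.83). ENSG00000288044 was lower and ENSG00000286825 higher in sh1Control, and these overlap each other on the same strand, so the share of reads given to each is uncertain, as for *SNORD15B*, which lies within *RPS3*. *SYK* and *SOX17*, singled out after their values were seen, encode a tyrosine kinase of immune receptor signalling and an endodermal transcription factor. *SYK* was at 2.06 ± 0.327 against 3.25 ± 0.219 cpm (SD, n = 3 each; -0.64, adjusted p = 0.0282, edgeR). *SOX17* was at 4.31 ± 1.34 against 6.65 ± 0.275 cpm (-0.60, adjusted p = 0.0157, edgeR).

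Short structured RNAs stood out by level. The RNA component of the signal recognition particle, 7SL, is made from near-identical gene copies, and 3 of them were called lower in sh1Control. *RN7SL3* matched *RN7SL1* at 292 of 299 aligned bases, and *RN7SL4P* at 259 of 292, so the copies can share reads. *RN7SL1* was at 9996, 5582 and 9026 cpm in sh1Control and at 13919, 13202 and 11095 cpm in sh4Control. The second sh1Control library was the lowest of the 6, and the groups did not overlap. The log2 fold changes were -0.63 ± 0.12 for *RN7SL1*, -0.67 ± 0.14 for *RN7SL3* and -0.74 ± 0.14 for *RN7SL4P* (adjusted p = 0.00228, 0.00426 and 0.00229, edgeR). Because the copies share sequence, these are not separate observations. *SNORD3A*, the U3 small nucleolar RNA that acts in pre-rRNA processing, was at 189, 81.6 and 145 cpm against 214, 205 and 231 cpm (-0.63 ± 0.14, adjusted p = 0.00614, edgeR), and its second sh1Control library was again the lowest. The small nucleolar RNA genes as a class took 0.0290 to 0.0489% of counts in sh1Control and 0.0495 to 0.0554% in sh4Control. *SNORD3A* is a large part of these totals, so they are not a separate observation. Of 60 small nucleolar RNA genes tested, 2 passed the adjusted p-value as lower and 0 as higher (all genes: 4.83% lower). Their median log2 fold change was -0.05.

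Mitochondrially encoded mRNAs were higher in sh1Control. They encode subunits of the respiratory chain and are transcribed from mitochondrial DNA. Of 13, all tested, 11 passed the adjusted p-value as higher and 0 as lower (all genes: 3.07% higher), with a median log2 fold change of 0.37 against 0.01 over all genes. *MT-ND2*, a subunit of complex I, was the member past both thresholds, at 830, 716 and 675 cpm against 452, 531 and 500 cpm (0.59 ± 0.07, adjusted p = 1.73e-05, edgeR). *MT-ND1*, another subunit of complex I, followed at 1450.5 ± 114 against 1059 ± 97.3 cpm (SD, n = 3 each; 0.46, adjusted p = 0.000351, edgeR). The summed level of the 13 ran from 26137 to 29559 cpm in sh1Control and from 19343 to 23157 cpm in sh4Control, without overlap. The nuclear pseudogene *MTND2P28* on chromosome 1 was also called (0.64 ± 0.10, adjusted p = 0.000606, edgeR). It matches *MT-ND2* at 1025 of 1042 aligned bases, and no base differs in the first 120, so its reads cannot be told apart from those of *MT-ND2* over such stretches. Those 120 bases, which both genes share, are shown in lower case.
MT-ND2 and MTND2P28: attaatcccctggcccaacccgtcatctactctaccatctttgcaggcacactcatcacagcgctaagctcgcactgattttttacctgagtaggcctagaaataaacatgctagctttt

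Ribosomal protein mRNAs were lower in sh1Control by a small amount that many members shared. Of 75 cytosolic ribosomal protein genes, all tested, 59 passed the adjusted p-value as lower and 0 as higher (all genes: 4.83% lower), 0 were called with the fold threshold, and the median log2 fold change was -0.27. The 59 became 10 in a fit of the 12 shRNA libraries and 0 in a fit of all 17. Of all genes tested, 385 of 17456 passed in the first of these fits and 0 of 18672 in the second, in either direction. The 0 of the second fit therefore says nothing about this group. *RPL39*, the member of smallest adjusted p-value, was at 20.6, 17.1 and 22 cpm in sh1Control and at 30.3, 29.7 and 26.8 cpm in sh4Control (-0.53 ± 0.08, adjusted p = 0.000606, edgeR). *RPS23* was at 187 ± 16.6 against 251 ± 21.1 cpm (SD, n = 3 each; -0.42, adjusted p = 0.000621, edgeR). *RPS29*, in whose locus *RN7SL1* lies on the other strand, had a log2 fold change of -0.04 (adjusted p = 0.899, edgeR).

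Replication-dependent histone mRNAs, which are made in S phase and end in a stem-loop in place of a poly(A) tail, were lower as well. Of 47 tested, of 59 listed, 40 passed the adjusted p-value as lower and 0 as higher (all genes: 4.83% lower). With the fold threshold 0 were called, and the median was -0.38. *H2BC4* was at 119, 103 and 132 cpm against 185, 183 and 145 cpm (-0.53 ± 0.08, adjusted p = 0.000351, edgeR), and *H4C13* at 27.4 ± 5.38 against 39.1 ± 5.11 cpm (SD, n = 3 each; -0.50, adjusted p = 0.00273, edgeR). When the 15825 runs of 25 neighbouring tested genes were ranked by median log2 fold change, the lowest median was -0.35, at the histone cluster on chromosome 6 (chr6:25992641-26285638). There 21 of the 25 genes passed the adjusted p-value (all genes: 7.9%). The highest was 0.26, at the protocadherin clusters on chromosome 5 (chr5:140882124-141512977), where 0 did by edgeR. The central 95% of runs had medians between -0.09 and 0.12.

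For these gene groups 1 control library lay nearer to the other line than its own replicates did. Ribosomal protein genes had median deviations from the mean of the 6 libraries of -0.10, -0.27 and -0.07 in sh1Control, and of 0.24, 0.20 and -0.01 in sh4Control, on the log2(cpm + 1) scale. Histone genes gave -0.16, -0.29 and -0.06 against 0.32, 0.28 and -0.03. In both groups replicate 3 of sh4Control lay close to sh1Control. Left-out libraries moved the counts: 11 to 66 of the 75 ribosomal protein genes were lower at the adjusted p-value (11 without sh1Control replicate 2, 20 without sh4Control replicate 1 or 2, 66 without sh4Control replicate 3), and 17 to 43 of the 47 or 48 histone genes tested (17 without sh1Control replicate 2, 20 and 22 without sh4Control replicates 1 and 2, 43 without replicate 3). The medians stayed negative in each of these fits, at -0.35 to -0.22 and -0.48 to -0.31. The number of all genes past the adjusted p-value, 1297 in the main fit, moved as well. It was 405, 212 and 842 without sh1Control replicates 1, 2 and 3, and 222, 213 and 3291 without those of sh4Control. The mitochondrial mRNAs passed as higher in 6 to 12 of 13 (6 without sh1Control replicate 1, 7 without sh4Control replicate 1). In the edgeR fits of the 12 shRNA and of all 17 libraries, 22 and 0 histone genes passed as lower and 6 and 0 mitochondrial mRNAs as higher. Of all genes tested, 385 of 17456 and 0 of 18672 passed there in either direction, so the fit of 17 says nothing about these groups.

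**Figure D2:**
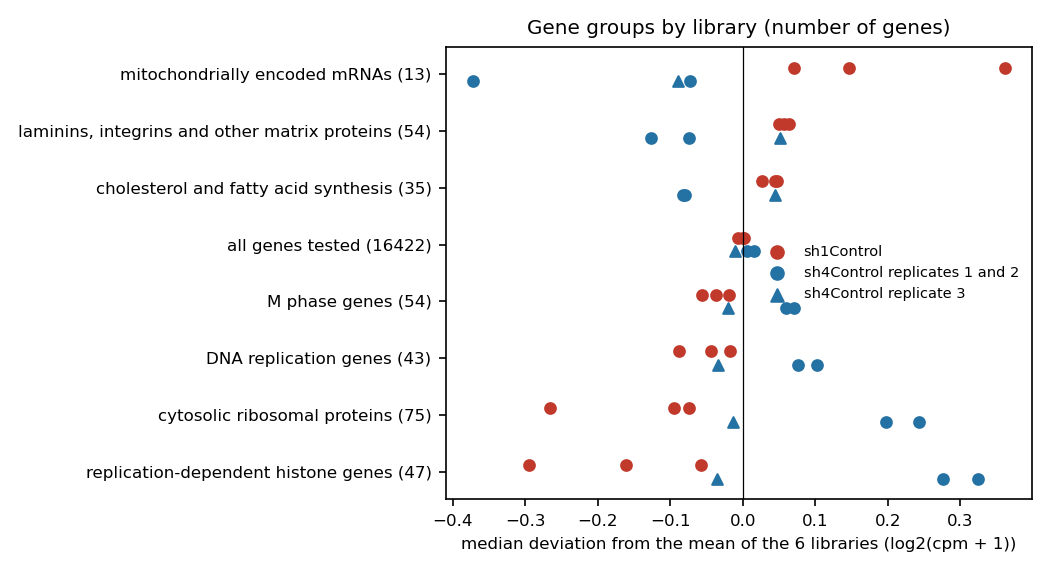
Each point is the median, over the genes of a group, of a library's deviation from the mean of the 6 libraries on the log2(cpm + 1) scale; red is sh1Control, blue is sh4Control, and the triangle is sh4Control replicate 3. Ribosomal protein and histone genes lie at -0.07 or below and -0.06 or below in sh1Control and above 0.19 in sh4Control replicates 1 and 2, while the triangle lies at -0.01 and -0.03, next to the sh1Control libraries; the mitochondrially encoded mRNAs lie above 0 in the 3 sh1Control libraries and below 0 in the 3 sh4Control libraries.

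The sign of small differences also moved with transcript length. The tested genes were split into 5 groups of about equal size by the length of the longest annotated transcript. In the shortest group (55 to 1707 nt) 38 passed the adjusted p-value as higher in sh1Control and 281 as lower. In the longest group (5875 to 205012 nt), 186 passed as higher and 57 as lower. Medians of the log2 fold change ran from -0.03 for transcripts of 1708 to 2803 nt to 0.04 in the longest group. Histone and most ribosomal protein mRNAs are short. With transcript length as an offset in the fit, 54 ribosomal protein genes and 40 histone genes passed as lower, with medians of -0.24 and -0.37. The part of transcript length in the group differences was not tested.

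**Figure D3:**
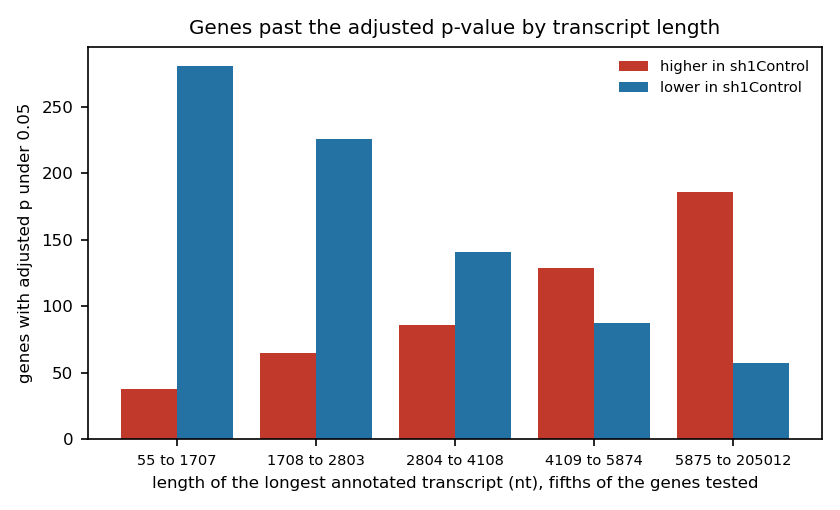
Bars give the number of genes past the adjusted p-value at baseline with the tested genes in 5 groups by length of the longest annotated transcript in nt, red for higher and blue for lower in sh1Control. Lower genes fall from 281 in the shortest group to 57 in the longest, and higher genes go from 38 to 186.

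No member of the cell cycle, stress and metabolic lists passed both thresholds. At the adjusted p-value alone, where 4.83% of all genes were lower and 3.07% higher, M phase genes had 9 of 54 lower and 0 higher, with a median of -0.07. Among them *CDC20*, an activator of the anaphase-promoting complex, was at 81.0 ± 1.43 against 97.1 ± 6.26 cpm (SD, n = 3 each; -0.25, adjusted p = 0.0108, edgeR). DNA replication genes had 2 of 43 lower (*TK1* among them). Targets of ATF4, the transcription factor of the integrated stress response, had 7 of 34 lower, *ATF4* itself among them (-0.24, adjusted p = 0.0182, edgeR). Of 38 NRF2 targets, the antioxidant genes *FTL* (-0.35), *TXN* (-0.28) and *HMOX1* (-0.23) were among 7 lower, and the transporters *ABCC1* (0.31), *ABCC3* (0.28) and *ABCC2* (0.23) were the 3 higher. Of 35 cholesterol and fatty acid synthesis genes, 3 were higher, among them *SREBF1*, the regulator of lipid synthesis (0.31), and *SCD* (0.29). Of 31 p53 targets, *CCNG1* was lower, and of 32 hypoxia and glycolysis genes, 4 were lower and 1 higher.

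The matrix lists that follow had median log2 fold changes of 0.13 and 0.14 and no member lower at the adjusted p-value. Of 24 tested collagens 3 were higher (*COL21A1* at 0.49, and *COL4A6* and *COL4A5*, chains of basement membrane collagen, at 0.41 and 0.29). Of 54 laminins, integrins and other matrix proteins 4 were higher: *NID2* (0.42), *LAMA3* (0.34), *ITGA2* (0.28) and *ITGB5* (0.27). *LAMA3*, a laminin alpha chain, was at 68.0, 72.6 and 70.0 against 53.3, 55.2 and 58.8 cpm, without overlap (adjusted p = 0.00196, edgeR). Of all genes, 3.07% were higher. Matrix proteases, inhibitors and crosslinkers had 3 of 38 higher and 2 lower. Hepatic and endodermal genes, which A549 expresses in part, had 4 of 23 higher (*FGL1* at 0.30, *APOH*, *FGG* and *CPS1*). In the remaining lists, at the adjusted p-value, MHC class I presentation had 3 of 17 higher and 1 lower, TGF-beta targets 1 of 19 higher and 3 lower, epithelial and mesenchymal markers 3 of 27 lower, YAP targets 2 of 23 lower, cytokines and chemokines 2 of 20 lower, AP-1 and immediate early genes 1 of 26 lower, and metallothioneins 0 of 5.

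Genes singled out earlier for their response to the knockdowns were examined next in the control cells. These were picked from results of the same series, so their knockdown values are given as a description. Of 13 tested, 4 passed the adjusted p-value at baseline, where 7.9% of all genes did, and 9 did not. *COL17A1*, a collagen of hemidesmosomes, was at 1.49 ± 0.317 cpm in sh1Control and 1.75 ± 0.109 cpm in sh4Control (SD, n = 3 each), with a 95% interval of the log2 fold change from -0.68 to 0.25. It stood at 20.9 ± 1.17 cpm in shD3 #1 and 3.03 ± 0.148 cpm in shD3 #4. *LAMB3*, a chain of laminin-332, was at 20.1 ± 0.736 and 23.1 ± 2.00 cpm in the controls (interval -0.35 to -0.02, adjusted p = 0.147, edgeR) and at 201 ± 8.88 and 35.7 ± 1.5 cpm in the induced lines. The induced lines thus differed for these genes far more than the controls did. *TNC*, encoding tenascin-C, was at 3.41 ± 0.451 and 3.68 ± 0.247 cpm in the controls and at 30.0 ± 0.657 and 3.17 ± 0.243 cpm in shD3 #1 and shD3 #4. *CANX*, the endoplasmic reticulum chaperone calnexin, was at 2285 ± 97.1 and 2122 ± 65.9 cpm in the controls and at 427 ± 14.9 and 1839 ± 69.2 cpm in the induced lines. *FN1*, encoding fibronectin, was at 375 ± 12.3 and 327 ± 58.1 cpm (interval 0.04 to 0.37, adjusted p = 0.108, edgeR), and *FBN1*, *SLC2A12*, *DEPDC1* and *TP53INP1* had adjusted p-values of 0.078, 0.967, 0.249 and 0.0506. The 4 that passed were histone genes: *H4C13* (-0.50), *H1-5* (-0.47), *H3C12* (-0.43) and *H2BC10* (-0.34).

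The line difference was then set beside the induced cells, which share no library with the controls. Of 49 called genes tested in both, 22 (44.9%) were also called between shD3 #1 and shD3 #4, where 28.9% of all genes tested in both were called (29.9% of all tested there). These 22 were 0.481% of the genes called between the induced lines. The direction was the same for 9 and opposite for 13. The 22 of 49 became 15 of 33, 11 of 19 and 23 of 49 without sh1Control replicates 1, 2 and 3. Without those of sh4Control it became 7 of 17, 8 of 20 and 78 of 164. In each of these fits 28.9% of all genes tested in both were called. The count of 9 was 3, 1 and 13 without sh1Control replicates 1, 2 and 3, and 1, 2 and 38 without sh4Control replicates 1, 2 and 3. *IL7R* was higher in the sh1 line in both states, at 1.84 ± 0.334 against 0.984 ± 0.240 cpm in the controls and at 13.8 ± 0.415 against 1.47 ± 0.241 cpm in the induced cells. *CP* was opposite: it stood at 59.3 ± 7.34 cpm in shD3 #1 and 229 ± 3.16 cpm in shD3 #4, so that the line with the lower control level had the higher induced level. *NOTCH3* was at 2.04 ± 0.430 and 25.5 ± 4.46 cpm, *SERPINA6* at 1.79 ± 0.463 and 8.32 ± 0.975 cpm, and *MUC16* at 0.385 ± 0.088 and 11.1 ± 0.219 cpm in shD3 #1 and shD3 #4, each again opposite in direction to the controls. *AOX1* (15.9 ± 3.31 and 6.48 ± 0.427 cpm), *DOCK2* (11.8 ± 0.638 and 4.45 ± 0.726 cpm) and *KRT6A* (2.98 ± 0.476 and 0.468 ± 0.0439 cpm) were lower in the sh1 line in the controls and higher in it after induction. In the induced cells the lines and the extent of THUMPD3 depletion vary together and cannot be told apart.

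**Figure D4:**
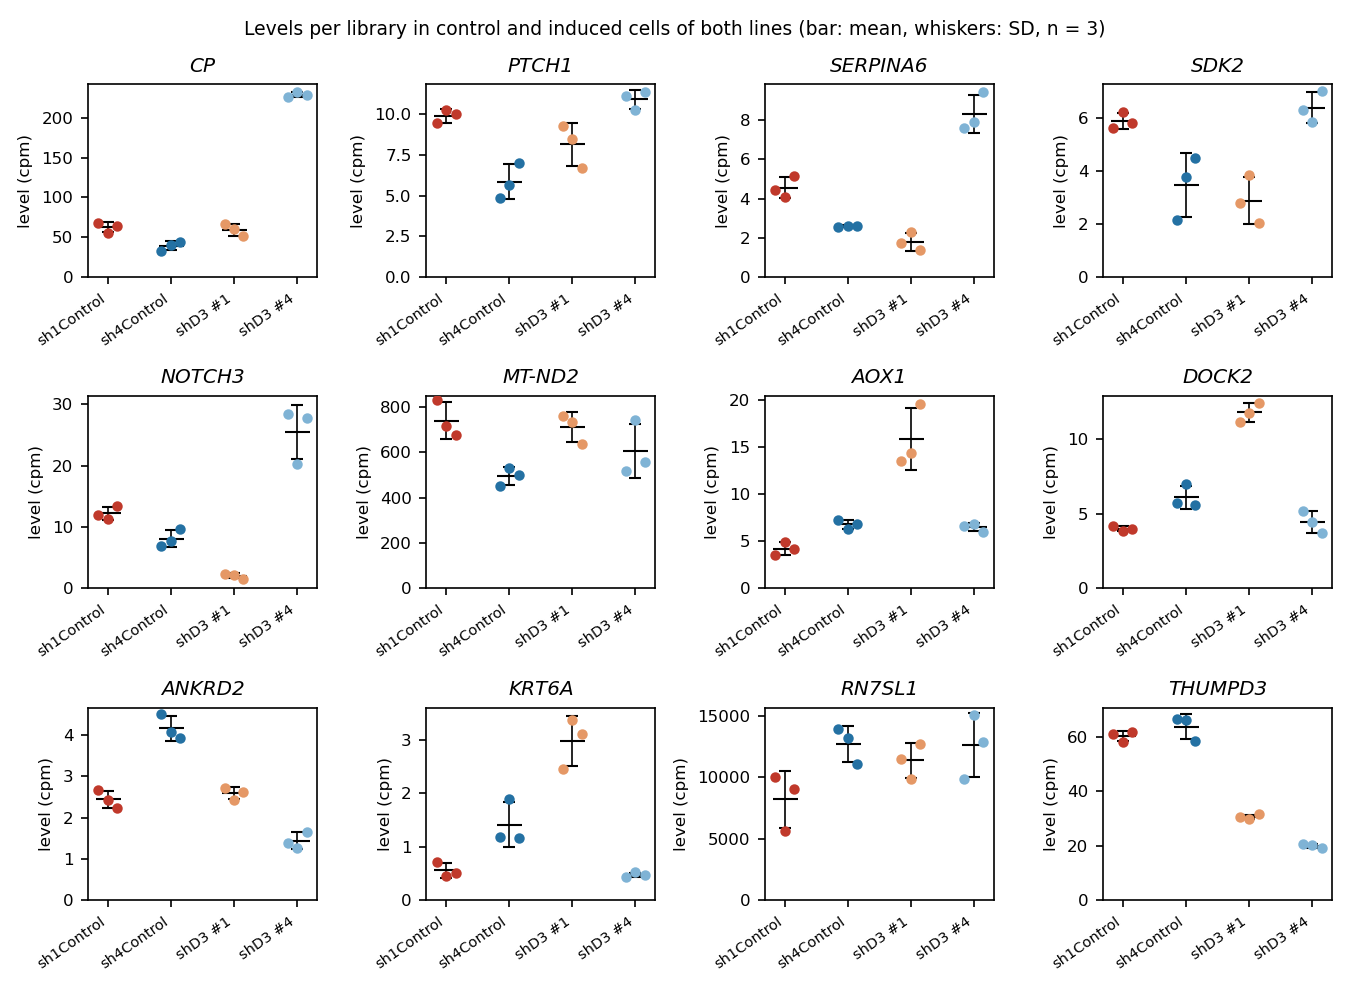
Levels in cpm of 12 genes in the 3 libraries of sh1Control, sh4Control, shD3 #1 and shD3 #4; bars are means and whiskers SDs, and each vertical axis starts at 0. *CP*, *PTCH1*, *SERPINA6*, *SDK2* and *NOTCH3* were higher in sh1Control than in sh4Control and higher in shD3 #4 than in shD3 #1; *AOX1*, *DOCK2* and *KRT6A* show the opposite arrangement, and *THUMPD3* overlapped between the controls and was lower in both induced lines.

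**Figure D5:**
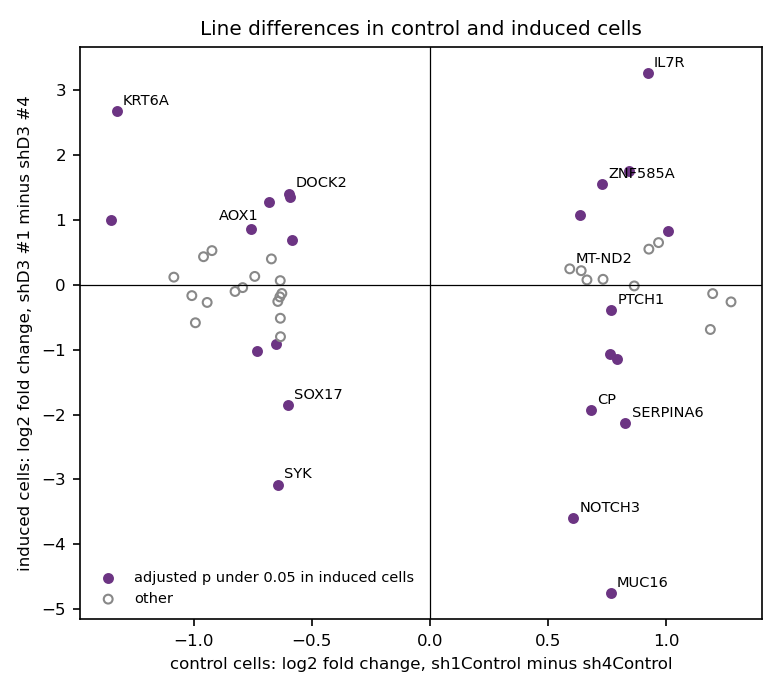
The log2 fold change of the control cells (sh1Control minus sh4Control, horizontal) against that of the induced cells (shD3 #1 minus shD3 #4, vertical) for the 49 genes called in the controls and tested in both; filled points passed the adjusted p-value in the induced cells. Points lie in all 4 quadrants, with *IL7R* and *ZNF585A* higher, and *SYK* and *SOX17* lower, in the sh1 line in both states, and *CP*, *SERPINA6*, *NOTCH3*, *MUC16*, *AOX1*, *DOCK2* and *KRT6A* opposite.

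The comparisons of shD3 #1 with sh1Control and of shD3 #4 with sh4Control share the control libraries with the baseline comparison, so a gene high by chance in 1 control group enters both, and no overlap with them is given. Their own values for the leading genes were as follows. The log2 fold change on induction of *CP* was -0.06 in the sh1 line, which did not pass the test, and 2.55 (adjusted p = 2.01e-17, edgeR) in the sh4 line. *PTCH1* changed by -0.25 (adjusted p = 0.0885, edgeR) and 0.90 (adjusted p = 1.43e-06, edgeR), and *NOTCH3* by -2.53 and 1.66 (adjusted p = 1.13e-09 and 3.55e-11, edgeR). *SERPINA6* and *MUC16* likewise fell in the sh1 line, by 1.28 and 2.66 on the log2 scale, and rose in the sh4 line, by 1.68 and 2.85. *AOX1* rose in the sh1 line (1.90, adjusted p = 5.98e-08, edgeR) and gave -0.07 in the sh4 line (adjusted p = 0.696, edgeR). *ANKRD2* gave 0.09 in the sh1 line (adjusted p = 0.699, edgeR) and fell in the sh4 line (-1.53, adjusted p = 2.6e-07, edgeR).

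The siRNA knockdown shares no library with the controls and was made by transfection. Of 49 called genes tested in both, 12 (24.5%) were called in siD3 #3 against siControl, where 20.6% of all genes tested in both were (22% of all tested there). In this fit the share is near that background, and 6 moved in the same direction as sh1Control minus sh4Control and 6 in the opposite one. Without a filter beyond 1 count, 24 of 70 (34.3%) were called against 15.1% of all genes, 14 in the same direction and 10 in the opposite one. The 12 were 0.367% of the genes called in the knockdown. Without sh1Control replicates 1, 2 and 3 the 12 of 49 became 6 of 34, 6 of 19 and 14 of 47. Without those of sh4Control it became 1 of 17, 4 of 20 and 49 of 162. The shares ran from 5.88 to 31.6%, where 20.6% of all genes tested in both were called. Of the 49 without sh4Control replicate 3 (30.2%), 37 moved in the same direction and 12 in the opposite one. *AOX1*, lower in sh1Control, rose by 1.83 (adjusted p = 0.00485, edgeR), and *MUC16*, higher in sh1Control, rose by 2.23 (adjusted p = 0.00906, edgeR). *SYK*, also lower in sh1Control, rose by 1.81 (adjusted p = 0.0161, edgeR). *CP* (1.53, adjusted p = 0.146), *PTCH1* (0.07, adjusted p = 0.765) and *NOTCH3* (0.58, adjusted p = 0.251) did not pass in edgeR's test.

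The deep libraries of shD3 #1 and sh1Control are separate libraries from those of the baseline comparison, although of the same line. Of 38 called genes tested in both, 24 (63.2%) were called there, where 25.9% of all genes tested in both were (29.1% of all tested there), and 13 moved in the same direction and 11 in the opposite one. The 24 were 0.672% of the genes called in the deep comparison, and became 20, 12 and 25 without sh1Control replicates 1, 2 and 3 and 9, 11 and 75 without those of sh4Control. *CP* was higher in deep shD3 #1 (1.71, adjusted p = 5.23e-08, edgeR), *NOTCH3* lower (-2.07, adjusted p = 4.59e-11, edgeR) and *GDA*, which encodes guanine deaminase and was lower in sh1Control, higher (3.71, adjusted p = 5.3e-13, edgeR). For *CP* the shD3 #1 libraries of the first table gave -0.06 against sh1Control, and the difference between the first and the deep libraries was not tested.

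At the adjusted p-value alone the overlap was larger and mostly of 1 direction for the siRNA. Of 1292 such genes tested in both, 571 (44.2%) also passed in siD3 #3 against siControl, where 32.4% of all genes tested in both did (33% of all tested there), 450 in the same direction and 121 in the opposite one. Of the 791 lower in sh1Control, 337 were also lower in siD3 #3, where 17.6% of all genes tested in both were (16.4% of all tested there). Of the 501 higher in sh1Control, 113 were also higher in siD3 #3, where 14.8% of all genes tested in both were (16.6% of all tested there). Genes of higher level passed more often at baseline (17.9% in the highest of 5 groups by level against 0.7% in the lowest), and short genes leaned lower in siD3 #3 as well (441 lower and 215 higher in the shortest of 5 groups). The part of level and length in the overlap was not tested. In the deep libraries 967 of 1240 (78%) passed, against 69% of all genes tested in both (62.6% of all tested there), 590 in the same direction, and between the induced lines 924 of 1292 (71.5%) against 56.7% (56.6% of all tested there), 405 in the same direction and 519 in the opposite one.

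The 3 gene groups were then read in the knockdowns. Of all genes tested, 16.6% were higher and 16.4% lower at the adjusted p-value in siD3 #3, 31.1% and 31.5% in deep shD3 #1, and 28.2% and 28.4% in shD3 #1 against shD3 #4. Histone genes were lower at the adjusted p-value in 46 of 47 in siD3 #3 (median -3.80), in 47 of 51 in deep shD3 #1 (median -1.20) and in 44 of 47 in shD3 #1 against shD3 #4 (median -1.07), beside the control median of -0.38. Ribosomal protein genes were lower in 15 of 75 in siD3 #3 (median -0.23) and in 50 of 73 in deep shD3 #1 (median -0.30), and 61 of 75 were higher in shD3 #1 against shD3 #4 (median 0.56), the opposite of the controls. Mitochondrially encoded mRNAs were higher in 3 of 13 in siD3 #3 (median 0.48), lower in 11 of 13 in deep shD3 #1 (median -0.58), and lower in 2 of 13 between the induced lines (median -0.05). Each induced line of the first table was also set against its own controls, which are the baseline libraries, as a description. Ribosomal protein genes had medians of 0.44 in shD3 #1 and -0.43 in shD3 #4. The shD3 #1 value was opposite in sign to that of the deep libraries. Mitochondrially encoded mRNAs had medians of 0.07 and 0.40, and histone genes of -1.27 and -0.53. The difference between the first and the deep libraries was not tested.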

How the data were processed

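RNA depleted of ribosomal RNA from A549 cells was made into directional libraries. The authors ran STAR 2.7.10a on GRCh38.p14, with its gene counting mode, and the deposited values of both tables are raw counts, in reads per gene, with no normalisation. Trimmomatic 0.40 is named in the submitters' processing notes. The strand setting is not given in the sources used here. The study names a RefSeq annotation, but the first table uses Ensembl identifiers; 61757 of its 61806 genes were found in GENCODE 44 (GRCh38), from which symbols, positions, lengths and sequences came. The deep table has 42901 genes, of which 27508 were matched by symbol.

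sh1Control was compared with sh4Control in edgeR 4.0.16 (R 4.3.3; limma 3.58.1) by its quasi-likelihood test, after filterByExpr at its defaults and TMM scaling. Other comparisons were fitted alike, each on its own libraries, and the line difference in induced minus control cells as an interaction over 12 libraries. A gene was called when its p-value, adjusted by Benjamini-Hochberg, was under 0.05 and it changed at least 1.5-fold. Levels in cpm use 1 TMM scaling over the 17 libraries of the first table. SEs belong to log2 fold changes, SDs to libraries. Intervals are 95%. Genes were named by rule: per direction the 12 called genes of largest change with a mean of at least 1 cpm and no overlap, the 3 of smallest adjusted p-value, up to 3 called members per list (30 lists), and the THUMPD3 family and knockdown lists; genes outside it are said to be chosen after seeing values, or were the list members of smallest adjusted p-value or those past it. Members and lists were chosen with earlier results of these data known. The labels call the replicates biological but do not say that they were separate cultures, so p-values measure the spread between these libraries. Alternatives were DESeq2 1.42.0, its size factors, other filters and thresholds, glmTreat, left-out libraries, a replicate block and larger fits. In counts simulated for this comparison (16174 genes tested), 18 of 48 genes changed 1.5-fold, 89 of 100 changed 2-fold and 49 of 50 changed 3-fold were called, and 1 of 15976 unchanged. Genes were drawn independently there, with no shift shared by many genes and no deviating library. These shares therefore need not hold for the real libraries. Figures were made with matplotlib 3.10.9 (python 3.11.15). Some named genes and sequences are not reported here. Columns of other samples left out: 0.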

Additional observations from a re-analysis of the deposited data

Results flagged for a closer look

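For genes named in the report, the difference between the lines was itself compared between induced and control cells, as the log2 fold change of shD3 #1 over shD3 #4 minus that of sh1Control over sh4Control. Of the 54 genes called in the controls, 31 passed the adjusted p-value of this interaction in edgeR's quasi-likelihood test, as did 47.7% of all 17456 genes tested. For 26 of the 31 the sign was opposite to the control difference and for 5 it was the same. The genes were chosen on the control difference, which is 1 term of this test, so the signs are not independent of the choice.

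Among genes higher in sh1Control, the line difference was lower in induced cells for *MUC16* (-5.51), *NOTCH3* (-4.19), *SERPINA6* (-2.96), *CP* (-2.61), *APBB1IP* (-1.94), *SDK2* (-1.82), *PTCH1* (-1.15), *MTND2P28* (-0.42) and *MT-ND2* (-0.34, adjusted p = 0.049 in edgeR, at the threshold). It was higher for *IL7R* (2.35), *ANKRD20A11P* (0.92) and *ZNF585A* (0.82), whose difference grew in the same direction.

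Among genes lower in sh1Control, the line difference was higher in induced cells for *KRT6A* (4.01), *DOCK2* (2.01), *AOX1* (1.97), *ANKRD2* (1.62), *EIF4BP7* (1.46), *APBA1* (1.40), *GDA* (1.28) and *RN7SL3* (1.07). It was lower for *SYK* (-2.44) and *SOX17* (-1.24), whose difference grew in the same direction. THUMPD3 was depleted to different levels in the induced lines (30.6 and 19.9 cpm), and its part in these differences was not tested.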

How the results depend on the processing

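The number of genes called between the controls (54) moved to 3 with DESeq2 (1008 at the adjusted p-value), 0 with glmTreat (56 at an unadjusted p-value under 0.05), 0 in 1 fit of all 17 libraries (2576 at an unadjusted p-value under 0.05), 20 in 1 fit of the 12 shRNA libraries, 13 at a log2 fold change of at least 1 and 1297 at the adjusted p-value alone; with 1 library left out it ran from 18 to 177, the highest without sh4Control replicate 3. It was 53 with DESeq2 size factors, 70 without a filter, 49 with at least 10 counts in every library, 55 without mitochondrially encoded genes and 60 with the transcript length offset. The called genes called in the same direction between the induced lines (9) were 0 with DESeq2, 3 with the 12 libraries, 0 at the larger fold, 405 at the adjusted p-value alone and 1 to 38 with a library left out. Those called in siD3 #3 (12) were 0 with DESeq2, 24 without a filter, 3 with the 12 libraries, 2 at the larger fold, 571 at the adjusted p-value alone and 1 to 49 with a library left out. Those called in the deep libraries (24) were 1 with DESeq2, 11 with the 12 libraries, 5 at the larger fold, 967 at the adjusted p-value alone and 9 to 75 with a library left out. Where the fit called 0 genes, no overlap could be given. The cause of these moves was not tested, except that the larger fold and the adjusted p-value alone change the threshold itself. With the replicate block 42 genes were called, 7 of them also in siD3 #3; the numbers do not pair the libraries, since deviations of same-numbered libraries correlated at -0.01, -0.13 and -0.17, and no library correlated best with its own number. Histone genes lower at the adjusted p-value (40) were 24 with DESeq2, 22 with the 12 libraries and 0 with the 17. Ribosomal protein genes lower (59) were 10 and 0 in those larger fits, and mitochondrially encoded mRNAs higher (11) were 6 and 0. Over all genes, 1008 passed in either direction with DESeq2, 385 with the 12 libraries and 0 with the 17. *THUMPD3* stayed between -0.13 and -0.04 and above the threshold throughout. None of 73 named genes was counted as reversed in the alternative fits, but that count does not fix the sign of genes near 0. *THUMPD2* (0.00) was at 16.3, 16.3 and 16.6 cpm in sh1Control. Without replicate 1 (15.1 cpm), sh4Control stood at 17.6 and 16.6 cpm, so its sign depends on that library. The fits of 12 libraries and with the length offset were chosen after seeing the data. Genes under 1 cpm rest on few counts at these depths.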
